A study of Mus musculus with 12 samples.

Results

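The expression of 7 genes that set how much sterol regulatory element-binding protein (SREBP) reaches the nucleus, or that handle sterol and lipoprotein receptors downstream of it, was followed in mouse liver. The genes were Srebf1, Srebf2, Scap, Insig1, Insig2, Stard4 and Mylip, and every assembled locus that named one of them was taken. They accounted for 11 of 66468 loci in the table of fasted and ad libitum fed mice and for 10 loci in the table of refed and fasted mice. Each locus is a cluster of assembled transcripts, and the tables name 47541 gene symbols in all.

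Livers came from C57BL/6 wild type mice aged 17 weeks on a control diet, which the methods give as males of the C57BL/6N substrain. FA mice had been without food for 16 h, RF mice had been without food for 16 h and then given food again for 6 h, and AL mice had eaten ad libitum. Genotype, age and diet were shared by the groups, and each held 4 of the 12 libraries. Levels are in FPKM, a count of fragments scaled to transcript length and to the size of the library, and the deposited tables pool each group into 1 value, so no value here has an SD, no difference was tested, and the depth of the libraries is unknown. No source used here gives the hour of collection, so feeding state and time of day cannot be told apart. In whole liver, fewer cells of a type and less RNA per cell cannot be told apart either.

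SREBPs are made as precursors in the membrane of the endoplasmic reticulum, where the escort protein SCAP binds them. When sterols are scarce, SCAP carries the precursor to the Golgi, where proteases release the part that enters the nucleus. When sterols are plentiful, an INSIG protein holds SCAP back. Srebf1 gives rise to SREBP-1c, which in liver is known for driving fatty acid synthesis and for its response to insulin, and Srebf2 encodes SREBP-2, which is known for driving cholesterol synthesis and lipoprotein uptake.

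The promoters of both paralog pairs are shown because the members of each pair differed in how far their RNA levels in FA and AL lay apart. The windows hold 250 bases before and 50 bases after the annotated start of transcription, on the coding strand, from RefSeq on GRCm38. They lie at chr5:28071162-28071461 on the plus strand (Insig1), chr1:121327975-121328274 on the minus strand (Insig2), chr11:60220578-60220877 on the minus strand (Srebf1) and chr15:82147019-82147318 on the plus strand (Srebf2). Insig2 and Srebf1 each had 3 windows, and the one nearest to the start of the transcript named in the tables is printed. Which Srebf1 window belongs to the transcript of SREBP-1c was not determined, so the printed one need not be its promoter. Capitals mark the E-box CACGTG, the NF-Y box CCAAT and the Sp1 GC box GGGCGG, each on either strand.
Insig1 promoter: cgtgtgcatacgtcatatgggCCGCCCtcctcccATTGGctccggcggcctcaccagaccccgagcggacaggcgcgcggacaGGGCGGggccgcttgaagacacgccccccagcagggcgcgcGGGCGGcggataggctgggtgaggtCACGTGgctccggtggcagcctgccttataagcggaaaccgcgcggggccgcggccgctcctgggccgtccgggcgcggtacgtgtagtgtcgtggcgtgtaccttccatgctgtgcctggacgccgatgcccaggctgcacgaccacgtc
Insig2 promoter: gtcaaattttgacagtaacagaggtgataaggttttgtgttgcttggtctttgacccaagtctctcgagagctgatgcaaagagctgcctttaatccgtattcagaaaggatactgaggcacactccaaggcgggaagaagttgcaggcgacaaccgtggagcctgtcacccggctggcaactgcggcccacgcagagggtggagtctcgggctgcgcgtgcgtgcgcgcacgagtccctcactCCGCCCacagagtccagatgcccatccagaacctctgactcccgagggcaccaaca
Srebf1 promoter: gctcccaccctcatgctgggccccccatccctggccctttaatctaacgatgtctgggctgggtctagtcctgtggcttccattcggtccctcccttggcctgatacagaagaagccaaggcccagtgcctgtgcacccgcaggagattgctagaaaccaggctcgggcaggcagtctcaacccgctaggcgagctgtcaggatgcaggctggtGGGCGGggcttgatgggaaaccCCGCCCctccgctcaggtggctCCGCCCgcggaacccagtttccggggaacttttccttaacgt
Srebf2 promoter: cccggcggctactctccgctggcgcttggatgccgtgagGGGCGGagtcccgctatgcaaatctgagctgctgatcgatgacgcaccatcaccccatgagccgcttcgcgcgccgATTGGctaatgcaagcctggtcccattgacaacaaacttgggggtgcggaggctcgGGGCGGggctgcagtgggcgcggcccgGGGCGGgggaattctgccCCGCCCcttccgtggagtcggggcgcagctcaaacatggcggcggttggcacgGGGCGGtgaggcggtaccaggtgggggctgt

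The Insig1 window held the E-box 101 bases before the start, 1 NF-Y box 216 bases before it and 3 GC boxes. The Insig2 window held a single GC box 6 bases before the start and neither of the other motifs. Other windows of these genes differed from the printed ones, as another Insig2 window held 3 NF-Y boxes and each of the other 2 Srebf1 windows held 1. The Srebf1 window at chr11:60210422-60210721 also held 2 GC boxes, and the one at chr11:60222532-60222831 held 0. The Srebf1 window held 3 GC boxes, and the Srebf2 window held 5 GC boxes and an NF-Y box 135 bases before the start. Of 32851 windows of the same length in RefSeq, 7.15% held the E-box, 37.4% the NF-Y box and 35.7% the GC box. The marked motifs did not overlap each other.

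The sterol regulatory element was searched as TCACNCCAC, where N is any base, and 1.24% of all windows held it on either strand. It was in 0 of the 11 windows of the 6 genes found in the RefSeq table, which says only that these letters are not in these windows. Allowing 1 of the 8 fixed letters to differ, a look taken after the exact search, gave a match in 4 of the 11 windows, beside 23.3% of all windows. The Srebf2 window held TCACCCCAT, whose difference from the motif is C9T counted from the 5′ end of the motif, 162 bases before the start. The Insig1 window held ACACGCCAC (T1A) on the opposite strand, 9 bases before the start, and the Insig2 window held TCACTCCGC (A8G) 11 bases before the start. The Mylip window held TCAGCCCAC (C4G) 128 bases before the start. The LXR element, a direct repeat of AGGTCA with 4 bases between, was in none of the 11 windows and in 0.0152% of all windows.

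The comparison of FA with AL asked which of these genes differ in liver after a 16 h fast. Srebf1, Insig1 and Stard4 had lower FPKM in FA by more than 2-fold. At the loci that name each gene alone on its own strand, Srebf2, Scap, Insig2 and Mylip were within 2-fold, with log2 ratios of -0.72, -0.28, 0.40 and 0.71. Ratios are given as log2 of (FPKM + 0.1) in FA over (FPKM + 0.1) in AL, and a locus was counted as past the fold at a ratio of 2 or more in either direction. Of 17226 loci with an FPKM of at least 1 in either group and above 0 in both, 2.5% were higher in FA by that fold and 3.55% were lower. All 11 loci passed this filter, the 3 Mylip loci only through FA because their AL values were under 1, and 2 of them were higher in FA by the fold and 4 were lower. With 1 main locus per gene, 1 of 7 was higher and 3 of 7 were lower. The 1 that was higher is a Scap locus that also names a microRNA. When only loci that name a single gene were used, 0 of 7 genes were higher and 3 of 7 were lower, with a median log2 ratio of -0.72, beside -0.02 over all 17226 loci. These counts describe pooled values and were not tested.

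**Figure D1:**
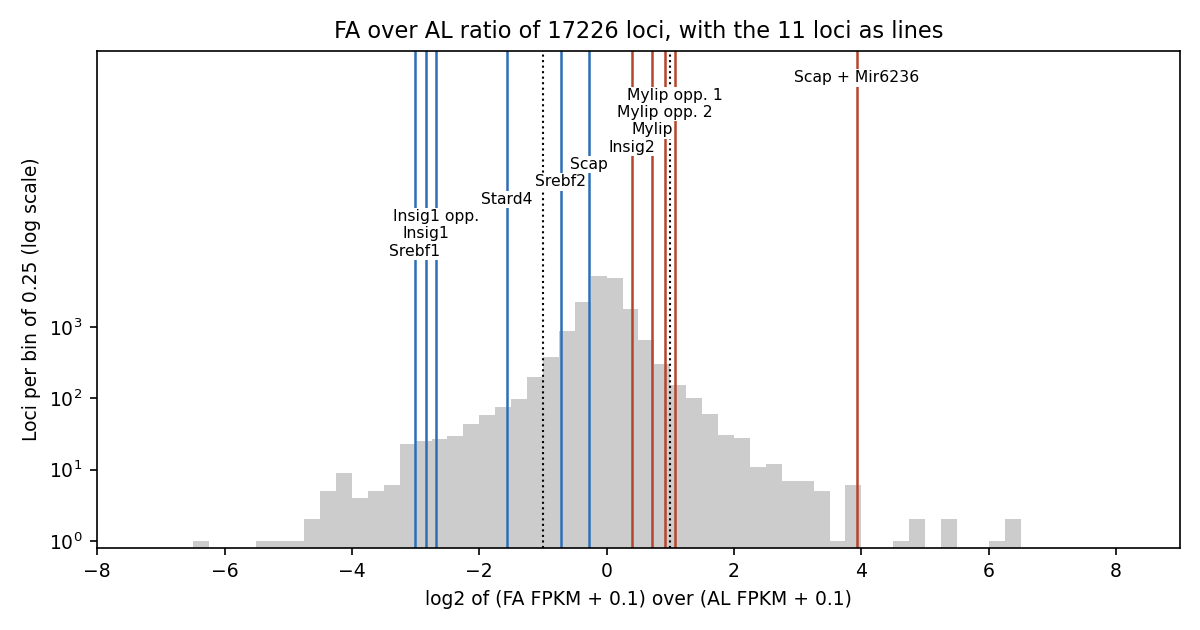
Histogram of the log2 ratio of FA over AL for 17226 loci (x axis, log2 of FPKM + 0.1 in FA over AL; y axis, loci per bin on a log scale), with the 11 loci of the 7 genes as vertical lines (red, higher in FA; blue, lower in FA; opp., opposite strand) and dotted lines at a ratio of 2 in either direction. Srebf1 (-3.02), Insig1 (-2.84) and Stard4 (-1.56) lie left of the dotted lines, and the Scap locus shared with Mir6236 (3.93) lies far to the right of the Scap locus that names Scap alone (-0.28).

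Of the precursor genes, Srebf1 (chr11:60199089-60222581, minus strand, GRCm38; 19 exons in the transcript named in the tables) had an FPKM of 8.08 in FA and 66.1 in AL. The log2 ratio was -3.02, or 8.18-fold lower in FA, and 56 of the 17226 loci had a lower ratio. Srebf1 has 12 annotated transcripts, and the locus value does not separate the transcripts of SREBP-1a from those of SREBP-1c. Srebf2 (chr15:82147181-82205379, plus strand, 19 exons) had an FPKM of 1.59 in FA and 2.68 in AL, a log2 ratio of -0.72. That is 1.69-fold lower in FA and within the fold used for counting, and 1058 loci had a lower ratio. Within a group, the Srebf1 level was 5.09 times that of Srebf2 in FA and 24.7 times in AL, both per length of transcript. The sum of the pair was 9.67 FPKM in FA and 68.8 FPKM in AL, so that most of its difference lay in Srebf1.

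Scap, the escort of both precursors, had 2 loci with opposite pictures. The locus that named Scap alone (gene at chr9:110333288-110384950, plus strand, 23 exons) had an FPKM of 15.9 in FA and 19.4 in AL, a log2 ratio of -0.28. A second locus on the same strand named Scap together with the microRNA gene Mir6236, which spans 123 bases at chr9:110281287-110281409, upstream of Scap. It had 873 FPKM in FA and 57.1 FPKM in AL, a log2 ratio of 3.93, or 15.3-fold higher in FA, and 10 of the 17226 loci had a higher ratio. Elp6, the gene between Mir6236 and Scap, had 1.10 FPKM in FA and 1.23 FPKM in AL. The deposited value does not say how much of the shared locus is Scap RNA, so the direction of Scap was read from the locus that names it alone.

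The 2 retention genes differed from each other. Insig1 (chr5:28071363-28078662, plus strand, 5 exons) is itself a known target of SREBPs, and had an FPKM of 10.4 in FA and 74.8 in AL. Its log2 ratio was -2.84, or 7.23-fold lower in FA, and 73 loci had a lower ratio. Insig2 (chr1:121304353-121332589, minus strand, 6 exons), whose liver transcript is known from mouse and rat to be lowered by insulin, had an FPKM of 62.5 in FA and 47.3 in AL. That was 1.32-fold higher in FA (log2 ratio 0.40), within the fold used for counting. In FA the Insig2 level was 6.04 times that of Insig1, whereas in AL the Insig1 level was 1.58 times that of Insig2, so the order of the pair was reversed between the groups. Their sum was 72.9 FPKM in FA and 122 FPKM in AL.

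**Figure D2:**
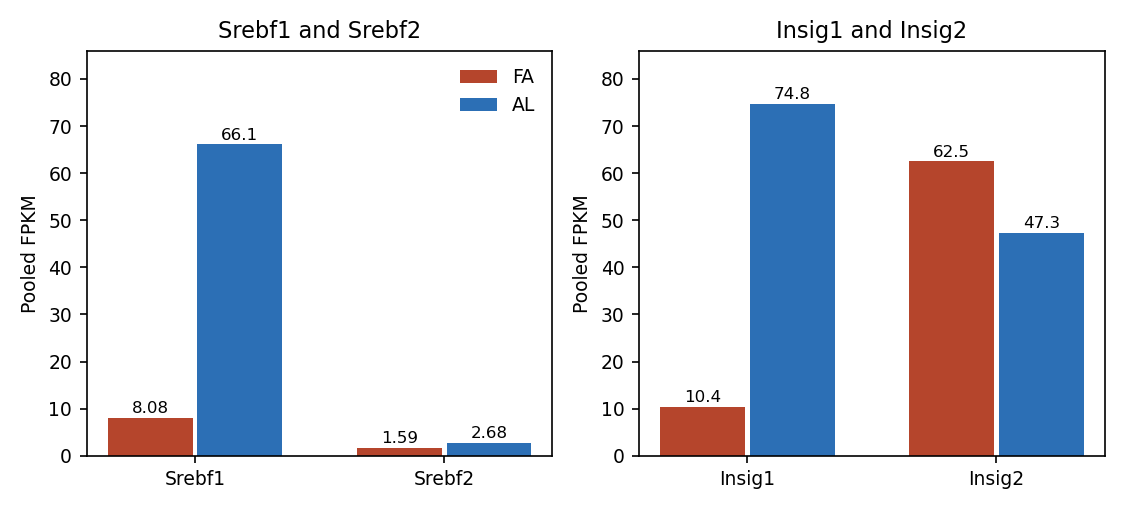
Pooled FPKM (y axis, from 0) of Srebf1 and Srebf2 (left) and of Insig1 and Insig2 (right) in FA (red) and AL (blue), 1 pooled value per bar with no error bar because single libraries are not in the tables. Insig1 was below Insig2 in FA (10.4 against 62.5) and above it in AL (74.8 against 47.3), while Srebf1 was above Srebf2 in both groups.

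Of the downstream genes, Stard4, which encodes a soluble protein that carries sterol between membranes and is known as an SREBP target, had an FPKM of 5.73 in FA and 17.1 in AL. The gene lies at chr18:33199355-33213862 on the minus strand. Its log2 ratio was -1.56, or 2.98-fold lower in FA, and 290 loci had a lower ratio. Mylip, also called Idol, encodes a ubiquitin ligase that sends lipoprotein receptors to degradation and is known as a target of the sterol-sensing receptor LXR. Its locus on the gene's own strand (chr13:45389742-45412022, plus strand, 7 exons) had an FPKM of 1.24 in FA and 0.722 in AL, a ratio of 1.72 (log2 ratio 0.71) that was within the fold. These levels are low, and the AL value was under 1.

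**Figure D3:**
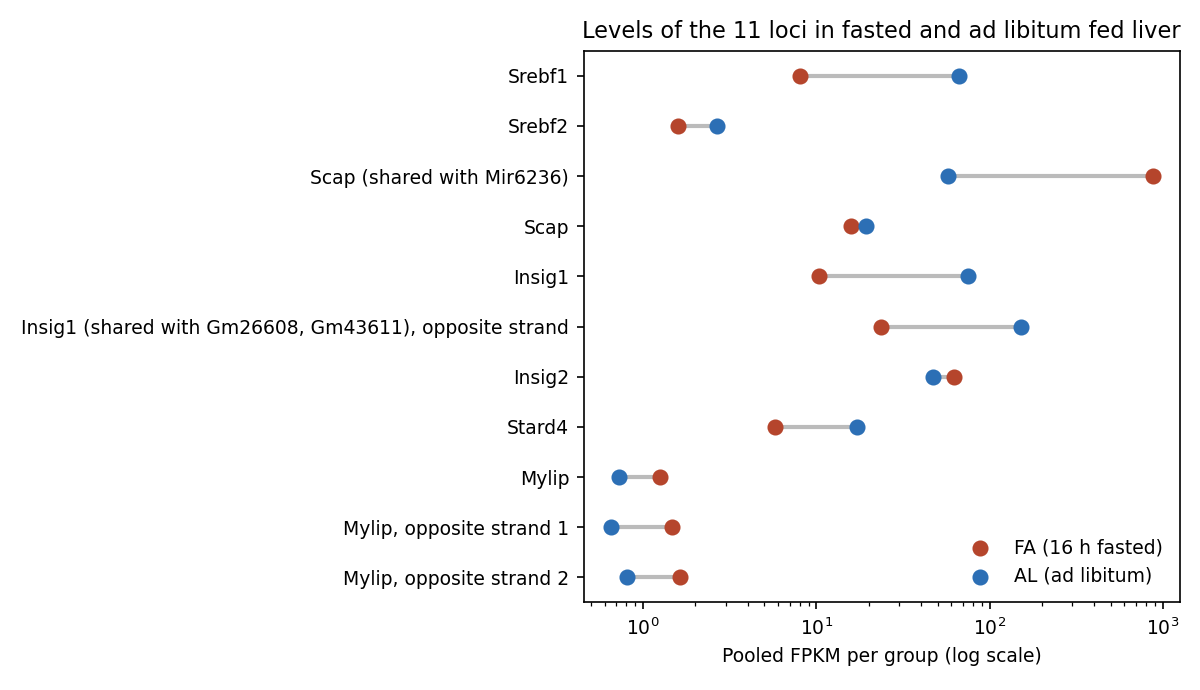
Pooled FPKM (x axis, log scale) of the 11 loci that name the 7 genes in FA (red) and AL (blue), with a grey bar joining both values of a locus. AL lies right of FA for Srebf1, Srebf2, Insig1, Stard4 and the Scap locus that names Scap alone, and FA lies right of AL for Insig2, the 3 Mylip loci and the Scap locus shared with Mir6236.

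Ordered by level over the loci that name a single gene, FA ran from Insig2 (62.5 FPKM) through Scap (15.9), Insig1 (10.4), Srebf1 (8.08), Stard4 (5.73) and Srebf2 (1.59) to Mylip (1.24). AL ran from Insig1 (74.8 FPKM) through Srebf1 (66.1), Insig2 (47.3), Scap (19.4), Stard4 (17.1) and Srebf2 (2.68) to Mylip (0.722). With no spread between libraries, which neighbours in these orders differ beyond error cannot be told. Srebf2 and Mylip were at the low end in both groups.

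A locus on the strand opposite to Insig1 was also assembled, as were loci that name genes annotated on the strand opposite to Srebf1 and Stard4. The FA and AL levels of these loci differed in the same direction as those of Insig1, Srebf1 and Stard4. The strand of a locus is not listed and was inferred from the numbering of the loci. Of 33360 loci of the whole series above 0 with a strand inferred so, 36.9% lay opposite to the gene they name. An opposite-strand locus at Insig1, shared with the lincRNA gene Gm26608 and with Gm43611, had 23.5 FPKM in FA and 151 FPKM in AL (log2 ratio -2.68). It was 227% of the Insig1 level in FA and 203% in AL, and Gm26608 ends 257 bases from Insig1. Rai1, whose annotation overlaps Srebf1 by 109 exonic bases on the other strand, had 2.10 FPKM in FA and 14.2 FPKM in AL (log2 ratio -2.70), which was 26.0% of the Srebf1 level in FA and 21.4% in AL. Camk4, on the other strand from Stard4 at a distance of 8126 bases, had 2.25 FPKM in FA and 6.86 FPKM in AL (log2 ratio -1.57). The strand on which the Rai1 and Camk4 loci were assembled was not checked, so their RNA is not shown to be opposite to Srebf1 or Stard4. These neighbours were looked up after the members' values were known, and whether their RNA comes from promoters of their own was not tested.

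Mylip had 2 opposite-strand loci. One had 1.47 FPKM in FA and 0.651 FPKM in AL, 2.27-fold higher in FA (log2 ratio 1.07), and 382 loci had a higher ratio. The other had 1.62 FPKM in FA and 0.810 FPKM in AL, with a log2 ratio of 0.92. The second was within the fold. Both passed the filter only through FA, as did the own-strand locus, so their shared direction is given as a description. In FA both stood above the 1.24 FPKM of the gene's own strand.

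The comparison of RF with FA asked what 6 h of food does after the fast. It rests on another table, whose 66468 test identifiers each name a transcript, 1 for each of the 66468 loci, and which can therefore hold only part of a gene. Of 39364 loci with FA above 0, the FA value in this table differed by under 10% in 25719, was lower by more than that in 13645 and was higher in 0. How the transcript was chosen is not stated. Of 10401 transcripts past the same filter, 4.11% were higher in RF by the fold and 3.23% were lower, with a median log2 ratio of 0.02. Of the 10 loci of the 7 genes, 3 passed the filter, 0 were higher and 1 was lower in RF. The transcript listed for Srebf1, Insig2, Stard4 and the locus of Scap alone had an FPKM of 1.58e-14 or less in both RF and FA, and that listed for Insig1 had 0.0296 FPKM in RF and 0.0159 FPKM in FA, so no refeeding value of these genes can be given. The Srebf2 transcript made up 26.1% of the FA value of its locus and had 0.189 FPKM in RF and 0.414 FPKM in FA, below the filter. The own-strand Mylip transcript had 0.0496 FPKM in RF and 0.0486 FPKM in FA, 3.91% of its locus.

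Both opposite-strand Mylip loci had the same FA value in both tables, and both were lower in RF. The first had 0.807 FPKM in RF and 1.47 FPKM in FA (log2 ratio -0.79). The second had 0.880 FPKM in RF and 1.62 FPKM in FA (log2 ratio -0.81). Neither was past the fold, and both passed the filter only through FA. The Scap locus shared with Mir6236 had 142 FPKM in RF and 873 FPKM in FA, a log2 ratio of -2.62, and was the 1 locus of the 7 genes that was lower in RF by the fold.

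RF was set beside AL only where FA values differed by under 10% between the tables, which may have been normalised separately. Of 8259 such loci past the filter, 2.11% were higher in RF than in AL by the fold and 2.91% were lower. The Scap locus shared with Mir6236 was higher, at 142 FPKM in RF and 57.1 FPKM in AL (log2 ratio 1.32). The Mylip loci had 0.807 FPKM in RF and 0.651 FPKM in AL (log2 ratio 0.27) and 0.880 FPKM in RF and 0.810 FPKM in AL (log2 ratio 0.11). Both Mylip loci were under 1 FPKM in RF and in AL, so they did not pass the filter and are not among the 8259 loci. Gm37174, a single-transcript model inside the span of Insig2 on the other strand with 0 bases of shared exon, had 1.89 FPKM in RF and 4.97 FPKM in FA (log2 ratio -1.35). It stood at 4.15 FPKM in AL.

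**Figure D4:**
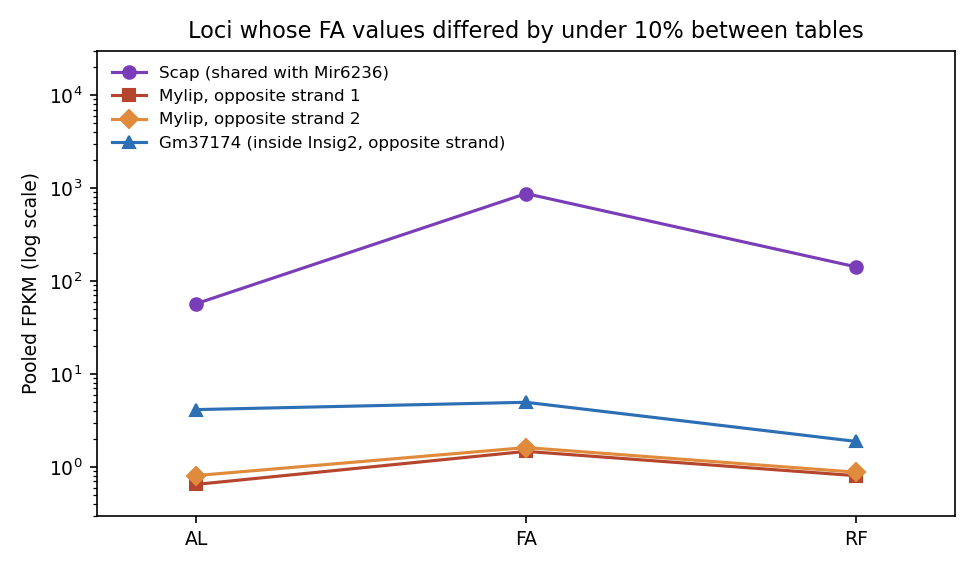
Pooled FPKM (y axis, log scale) in AL, FA and RF (x axis) for the 3 loci of these genes whose FA values differed by under 10% between the tables, and for Gm37174 inside Insig2; lines join the pooled values of a locus. The Scap locus shared with Mir6236 and both opposite-strand Mylip loci are highest in FA, and Gm37174 is lowest in RF.

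The genes whose loci lay nearest to the shared Scap and Mir6236 locus, by Euclidean distance in log2 FA over AL and log2 RF over FA among 6904 loci, were Filip1l (0.360), Angptl4 (1.12) and Acot1 (1.41). The Filip1l locus had 59.4 FPKM in FA and 4.18 FPKM in AL, with 12.1 FPKM in RF. The Angptl4 locus had 17.5 FPKM in FA and 2.38 FPKM in AL, with 3.15 FPKM in RF. All 3 were loci on the strand opposite to the gene. For the opposite-strand Mylip loci, a search added after their values were seen gave Gjc3, Arrdc4 and Tox for one (distances of 0.0454 to 0.0689) and Bcl2l11, Arrdc4 and Ankmy1 for the other (0.0566 to 0.0761). Of the loci from this added search, only that of Ankmy1 was on the gene's own strand.

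Genes around the 7 were taken from 6 lists. Of 18 genes listed under SREBP processing and sterol-regulated degradation, 16 passed the filter, and 0 were higher and 0 were lower by the fold. Their median log2 ratio was -0.06, beside -0.02 over all loci. Not every gene of this list is known to act on SREBP or INSIG proteins directly. Such counts lie near the shares over all loci (2.5% higher, 3.55% lower), so nothing is read from them about this list or the other lists with 0 past the fold. At a fold of 1.5, 2 were lower in FA. Mbtps1, the Golgi protease that makes the first cut in SREBPs, had 6.38 FPKM in FA and 6.46 FPKM in AL. Erlin1, which helps degrade sterol-regulated proteins, had 2.88 FPKM in FA and 4.81 FPKM in AL (log2 ratio -0.72). The ends of the range were Tmem97 (6.21 FPKM in FA, 10.6 FPKM in AL, log2 ratio -0.76) and Paqr3 (2.59 FPKM in FA, 2.15 FPKM in AL, log2 ratio 0.26).

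The enzymes that SREBPs are known to induce differed most of the 6 lists. Of 19 sterol synthesis enzymes past the filter, 15 were lower in FA by the fold and 0 were higher, with a median log2 ratio of -2.53. Idi1, the isopentenyl diphosphate isomerase, had 5.31 FPKM in FA and 63.1 FPKM in AL. Hmgcs1, which makes HMG-CoA for the pathway, had 11.8 FPKM in FA and 112.9 FPKM in AL. Nsdhl, a sterol dehydrogenase, had 2.32 FPKM in FA and 19.9 FPKM in AL. Fdps, the farnesyl diphosphate synthase, had 14.1 FPKM in FA and 265.6 FPKM in AL at a locus shared with Gm43738 and Rusc1. Of 13 fatty acid synthesis genes, 12 were lower in FA and 0 were higher, with a median log2 ratio of -2.64. Thrsp and Mid1ip1, at 0.485 and 0.562 FPKM in FA, passed the filter only through AL. For these 2 genes the call of lower follows in part from the filter. Thrsp, which promotes lipogenesis, was the lowest at -5.05, followed by Fasn, the fatty acid synthase, at -4.27, Acly, the citrate lyase, at -3.05, and Elovl6, a fatty acid elongase, at -3.03. Srebf1 and Insig1, at -3.02 and -2.84, lay within the range of both lists.

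**Figure D5:**
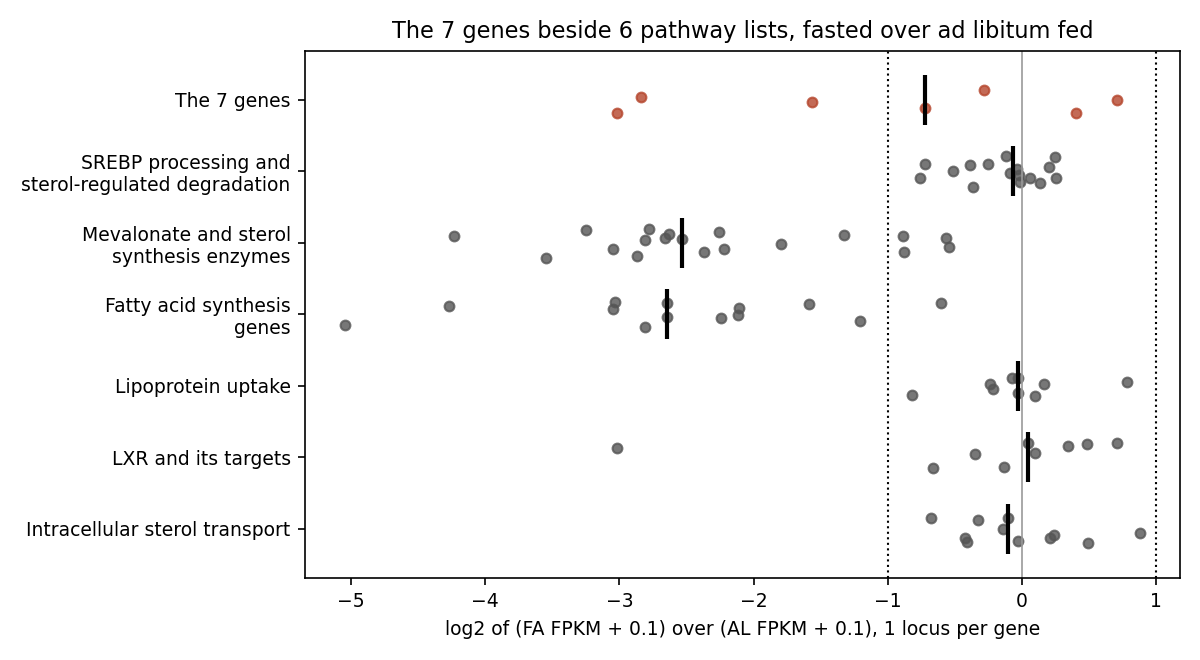
Log2 ratio of FA over AL (x axis) for the 7 genes at the locus that names each alone (red) and for the genes of 6 lists past the filter (grey); black bars are medians, dotted lines mark a ratio of 2 in either direction, and vertical scatter within a row has no meaning. Sterol and fatty acid synthesis genes lie mostly left of -1, with medians of -2.53 and -2.64, and the other 4 lists centre near 0.

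Genes of lipoprotein uptake other than Mylip (receptors, adaptors and coat proteins) held 9 past the filter, with 0 higher and 0 lower by the fold and a median log2 ratio of -0.03. The list was drawn up without some well-known SREBP-responsive receptor and regulator genes, which are not analysed here, so its counts do not describe uptake as a whole. Its ends were Scarb1, the HDL receptor, with 30.8 FPKM in FA and 17.9 FPKM in AL (log2 ratio 0.78), and Sort1, with 1.01 FPKM in FA and 1.86 FPKM in AL (log2 ratio -0.82). Of 9 genes of LXR and its targets, Srebf1 was the 1 that was lower by the fold and 0 were higher. Nr1h3, which encodes LXR alpha, had 17.1 FPKM in FA and 18.8 FPKM in AL. Abca1, a sterol exporter, had 16.4 FPKM in FA and 25.9 FPKM in AL (log2 ratio -0.66), and Mylip, also on this list, had the ratio of 0.71 given above. Of 11 genes of sterol transport within cells, 0 were higher and 0 were lower, and Npc1, which exports cholesterol from lysosomes, had the highest ratio (log2 0.88), with 17.9 FPKM in FA and 9.67 FPKM in AL. Stard4 is a transport protein as well, and its ratio of -1.56 lay below the lowest of this list, Osbp at -0.68.

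Fewer of these genes could be read in RF. Of 6 sterol synthesis transcripts past the filter, 4 were higher in RF by the fold and 0 were lower. Over all 10401 transcripts past the filter, 4.11% were higher and 3.23% were lower. Of the 4 that were higher, Cyp51, Msmo1 and Mvk passed the filter only through RF. The count of 4 thus follows in part from the filter, and with a pseudocount of 1 it was 2. Cyp51 had 7.90 FPKM in RF and 0.393 FPKM in FA, Hmgcs1 had 43.7 FPKM in RF and 4.48 FPKM in FA, Msmo1 had 1.49 FPKM in RF and 0.285 FPKM in FA, and Mvk had 1.04 FPKM in RF and 0.298 FPKM in FA. Each of these is part of a locus. Of 5 fatty acid synthesis transcripts, Thrsp was higher, at 9.86 FPKM in RF and 0.485 FPKM in FA with the FA value shared by both tables, and it passed the filter only through RF. It stood at 19.2 FPKM in AL. Gpam was lower, at 3.82e-05 FPKM in RF and 1.78 FPKM in FA, again for part of its locus, and it passed the filter only through FA. Scarb1 (2.83 FPKM in RF, 9.51 FPKM in FA) and Abcg8 (0.442 FPKM in RF, 1.09 FPKM in FA) were lower among the uptake and LXR lists, also for part of a locus. Abcg8 passed the filter only through FA. No transcript of the processing list (2 past the filter) or the transport list (1 past the filter) was past the fold. With so few transcripts, nothing is read from single calls or from counts of 0 in these lists.

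Markers of liver cell types were summed in each group. Those of hepatocytes summed to 13322 FPKM in FA and 12403 FPKM in AL, although Alb, which encodes albumin and defines the cell type, was listed at 0 in both, and 1 of 6 that passed the filter, Cyp2e1, was higher in FA (2654 FPKM in FA, 1031 FPKM in AL). Without Cyp2e1 the sum was lower in FA, at 10668 FPKM in FA and 11372 FPKM in AL. Kupffer cell markers summed to 15.8 FPKM in FA and 18.6 FPKM in AL, and endothelial markers to 16.4 FPKM in FA and 18.5 FPKM in AL. Stellate cell and fibroblast markers summed to 10.6 FPKM in FA and 18.2 FPKM in AL, and erythroid markers to 562 FPKM in FA and 758 FPKM in AL. Of these 4 lists, only 1 stellate marker of 2 past the filter was lower in FA by the fold. Markers of bile duct cells, lymphocytes, adipocytes and pancreas summed to less than 1 FPKM in each group. Their part in the values of the 7 genes was not tested. Because very abundant genes can be listed at 0, such a 0 is given as listed and not as absence of RNA.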

How the data were processed

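Per the labels and the published methods, liver RNA was depleted of ribosomal RNA, made into strand-specific libraries, cleared of ribosomal reads with Bowtie2 2.2.9, aligned to GRCm38 with STAR 2.6.0c, and assembled and compared with Cufflinks 2.2.1 and Cuffdiff. The authors deposited FPKM values in 2 tables, FA with AL and RF with FA, as 1 value per group pooled over 4 libraries, with 0 columns of single libraries. The tables also hold fold changes, test statistics, p-values, q-values and significance calls of the authors, which were not used. No count was available for a count test, and the depth per library is unknown.

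Loci were matched by gene symbol and given the strand implied by locus numbering, and positions came from GENCODE release M21. Ratios were log2 of FPKM + 0.1, for loci of at least 1 FPKM in either group and above 0 in both. The main locus of a gene was the one with the highest mean FPKM in FA and AL, own strand preferred where it reached 0.1 of the highest. From each list the 4 genes with the largest ratio past the fold were named, and for the shared Scap locus the 3 nearest genes. Other list genes, such as those at the ends of a range, were named after their values were seen. The 7 genes and the lists were chosen with earlier results of these data known. Ufd1 was found under an older symbol, and Mvd was not analysed here. Alternatives were another pseudocount, filter, fold, strand or locus rule. Python 3.11.15 with pandas 2.3.3 was used, and the code was tested on simulated data.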

Additional observations from a re-analysis of the deposited data

How the results depend on the processing

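Replicate error is the main limit, since values are pooled and depth is unknown. No paired analysis was possible because the tables hold 1 pooled value per group, and no replicate could be left out for the same reason. Of 273 alternative values, 224 kept their direction and stayed on the same side of the fold or near the first value. Another filter or fold cannot alter the ratio of a gene, so this count and the ranges below were partly fixed in advance. For a gene with 1 locus, such as Srebf1, the strand and locus rules could not alter it either. Its ratio could move only with the pseudocount or with a shift by the median of all loci. Srebf1 ranged from -3.03 to -2.89 on the log2 scale, Insig1 from -2.85 to -2.74, Stard4 from -1.58 to -1.43, Insig2 from 0.39 to 0.43, Srebf2 from -0.75 to -0.51 and Mylip from 0.38 to 0.96. Scap was 3.93 at the locus shared with Mir6236 and reversed to -0.28 at the locus that names it alone, where the locus used is the cause. Srebf2 and Mylip were past a fold of 1.5, and Stard4 was not past a fold of 3.

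Counts over all loci changed with the filter, fold and strand settings by construction, since these change the loci or the threshold. The pseudocount of 1 changes neither, but it shrinks ratios at low FPKM, so the calls lost with it depend on the pseudocount. For FA against AL, against 430 higher and 612 lower, they were 212 and 354 with a pseudocount of 1, 1487 and 1731 with no filter, 170 and 279 at 5 FPKM or more, 1111 and 1483 at a fold of 1.5, 156 and 282 at a fold of 3, and 194 and 277 on the gene's own strand. For RF against FA, against 427 higher and 336 lower, they were in the same order 210 and 129, 1553 and 1618, 131 and 90, 1000 and 834, 188 and 129, and 161 and 111.

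Of the 7 genes in FA against AL, 2 were higher at a fold of 1.5 and 0 were higher at loci naming 1 gene. In RF against FA, 0 were lower at loci naming 1 gene. At a fold of 1.5 in FA against AL, the lists gave 2 lower for SREBP processing, 1 higher and 1 lower for lipoprotein uptake, 1 higher and 2 lower for LXR, and 1 higher and 1 lower for sterol transport. In RF against FA, sterol synthesis had 2 higher with a pseudocount of 1 and 7 when the loci of a gene were summed, fatty acid synthesis had 2 higher at a fold of 1.5 and 4 when summed, and LXR had 0 lower with a pseudocount of 1 or when summed and 1 higher at a fold of 1.5.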
